A study of Mus musculus with 24 samples.

Results

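The naive pluripotency transcription factors examined here are 10 genes, Nanog, Esrrb, Klf2, Klf4, Klf5, Tfcp2l1, Zfp42, Tbx3, Prdm14 and Nr5a2. They were chosen by name from the 51697 genes of the deposited read count table, and all 10 had enough reads to be tested in every comparison. No cut on expression values was used in that choice, but earlier results of these data were known when it was made.

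RNA-seq had been made from F123 cells, a mouse embryonic stem (ES) cell line, in which CTCF carries an auxin-inducible degron (AID). CTCF is a DNA-binding protein that sets boundaries of chromatin loops, and auxin marks a degron-tagged protein for destruction. Every one of the 24 libraries comes from these degron cells, in 12 groups of 2 replicates. ES cells in medium with LIF (leukaemia inhibitory factor) were sampled without auxin (0 h) and after 24, 48 and 96 h of auxin. Cells put through neural progenitor differentiation were sampled on days 2, 4 and 6, each without auxin (control) and with it. The day 4 washout group was sampled 2 days after auxin had been removed on day 4, and the day 6 washout group 2 days after its removal on day 6, so the latter has no control of the same age. Auxin-treated cells without the degron were not analysed here, so effects of auxin itself and of CTCF loss cannot be told apart. The labels do not say that the 2 replicates of a group were separate cultures, so p-values measure only the spread between these libraries.

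Naive pluripotency is the state of the early epiblast, which mouse ES cells keep in culture with LIF. LIF acts through STAT3 on Klf4 and Tfcp2l1, and with the pair OCT4 and SOX2 a mutually reinforcing circuit of factors holds the state. When cells leave it, these factors are switched off before lineage genes come on. Nanog is a homeodomain factor. Esrrb and Nr5a2 are orphan nuclear receptors, and Nr5a2 can also drive Pou5f1, the gene for OCT4. Klf2, Klf4 and Klf5 are zinc-finger factors of one family that bind GC-rich sites and can partly replace one another. Tfcp2l1 is a Grainyhead-like factor downstream of LIF, Tbx3 a T-box factor, and Prdm14 a PR-domain repressor that also acts in germ cells and keeps de novo DNA methylation low. Zfp42, also called Rex1, is a YY1-related zinc-finger gene used as a reporter of the naive state.

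The start regions of 3 members are shown because they differ in the sites that they hold and their genes differ in how far they fell during differentiation. They are RefSeq promoter windows of the mm10 genome, each 300 bases on the strand of the gene, from 250 bases before the start to 50 after it. Capitals mark matches to the motifs named after them.
Nanog, chr6:122707315-122707614, plus strand: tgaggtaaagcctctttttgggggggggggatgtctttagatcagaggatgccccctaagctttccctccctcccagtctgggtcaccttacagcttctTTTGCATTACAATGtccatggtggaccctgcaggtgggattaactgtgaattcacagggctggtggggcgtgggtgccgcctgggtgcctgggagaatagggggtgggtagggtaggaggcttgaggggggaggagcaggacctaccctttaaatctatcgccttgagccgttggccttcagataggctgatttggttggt
Zfp42, chr8:43306960-43307259, minus strand: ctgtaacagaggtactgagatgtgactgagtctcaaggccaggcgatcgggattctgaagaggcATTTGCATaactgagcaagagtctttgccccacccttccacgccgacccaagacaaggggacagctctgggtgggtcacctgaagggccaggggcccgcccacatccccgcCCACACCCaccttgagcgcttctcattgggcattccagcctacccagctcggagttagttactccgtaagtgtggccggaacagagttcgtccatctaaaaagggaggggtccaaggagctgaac
Klf4, chr4:55532426-55532725, minus strand: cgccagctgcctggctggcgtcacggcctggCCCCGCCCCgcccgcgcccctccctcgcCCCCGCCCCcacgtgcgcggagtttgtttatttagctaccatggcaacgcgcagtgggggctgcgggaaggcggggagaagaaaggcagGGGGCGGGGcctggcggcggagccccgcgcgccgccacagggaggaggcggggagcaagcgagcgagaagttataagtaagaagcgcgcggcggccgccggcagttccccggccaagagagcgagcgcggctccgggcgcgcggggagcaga

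The Nanog window holds the OCT-SOX composite, TTTGCAT, any base, then ACAANG, 151 bases upstream of the start. These letters were chosen because the composite site of the Nanog promoter is well known, so the match is a description and not a finding. Of 32851 RefSeq promoter windows of this length, searched on both strands, 3 (0.00913%) held it, and 2 of the 3 are the overlapping windows of Nanog. The Zfp42 window holds the octamer ATTTGCAT, present in 1.74% of windows, 186 bases upstream. It also holds the KLF site GGGTGTGG on the opposite strand 75 bases upstream, a motif present in 3.56% of windows. The Klf4 window holds 3 GC boxes GGGGCGGGG, which occur in 11.4% of windows, and the Klf2 window holds 2. The octamer and the composite share the letters TTTGCAT, and the KLF site and the GC box share none of their matches here. Promoter windows were found for 7 members, 10 windows in all. None of the 10 held the CTCF core, CC, 3 bases of any kind, then AGGGGGC, which occur in 1.28% of windows, nor TCAAGGTCA from the estrogen-related receptor motif (0.423%) or TTCCNGGAA from the STAT3 motif (1.15%).

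Libraries held between 24696374 and 72048935 counts assigned to genes. Levels are given as CPM, counts scaled to a common library total, with edgeR's trimmed mean of M-values. Over genes, the log2 ratio of one replicate to the other had an SD of 0.54 to 0.65 in ES cells, 0.30 in day 2 auxin and 0.17 to 0.19 in the other 7 groups. So differences between ES groups were measured with much less precision. Day 2 auxin was fitted together with the 7 tighter groups. The SE of its comparisons may therefore be too small, and that of comparisons among the 7 too large. Ctcf mRNA was 217 and 172 CPM in ES cells at 0 h and 211 and 269 CPM after 96 h of auxin, and it says nothing of CTCF protein. ES cells at 0 h had the defining marker Pou5f1 at 530.3 and 559 CPM and Sox2 at 304 and 263 CPM. Day 6 control had 7 of 9 neural progenitor markers above ES 0 h, where 5240 of all 23831 genes were higher. But its endoderm markers, 12 genes, summed to 3107 and 2815 CPM against 893 and 1596 CPM in ES 0 h, with none at 0 in either group. Of the 12, 6 were called higher than in ES 0 h and 1 lower, where 5240 and 5185 of all genes were. Which cells held this RNA was not tested.

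In undifferentiated ES cells without auxin the 10 genes spanned a 22.95-fold range of level per kilobase of exon. Zfp42 was highest, at 189 ± 33.5 CPM per kilobase (SD, n = 2). Nanog followed at 153 ± 12.9 and Esrrb at 139.6 ± 60.6 CPM per kilobase, with overlapping replicates. Klf4 stood at 107 ± 38.7 and overlapped Esrrb. Tbx3 was at 59.2 ± 26.9, Klf2 at 48.1 ± 33.7 and Tfcp2l1 at 35.7 ± 5.69 CPM per kilobase, and each overlapped its neighbour in that order. Klf5 was lower than these, at 18.7 ± 0.508, and Prdm14 and Nr5a2 were lowest, at 9.11 ± 1.24 and 8.23 ± 0.556 CPM per kilobase, again with overlapping replicates. Of the 9 neighbouring pairs, 5 overlapped, so only the coarse order is fixed by 2 libraries. By day 6 of control differentiation the span was 49.3-fold and the order had changed. Zfp42 (22.8 ± 1.05), Klf4 (22.1 ± 0.60) and Tbx3 (16.6 ± 0.017 CPM per kilobase) then led, Nanog was sixth at 4.73 ± 0.047, and Prdm14 was last at 0.46 ± 0.0026 CPM per kilobase.

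**Figure D1:**
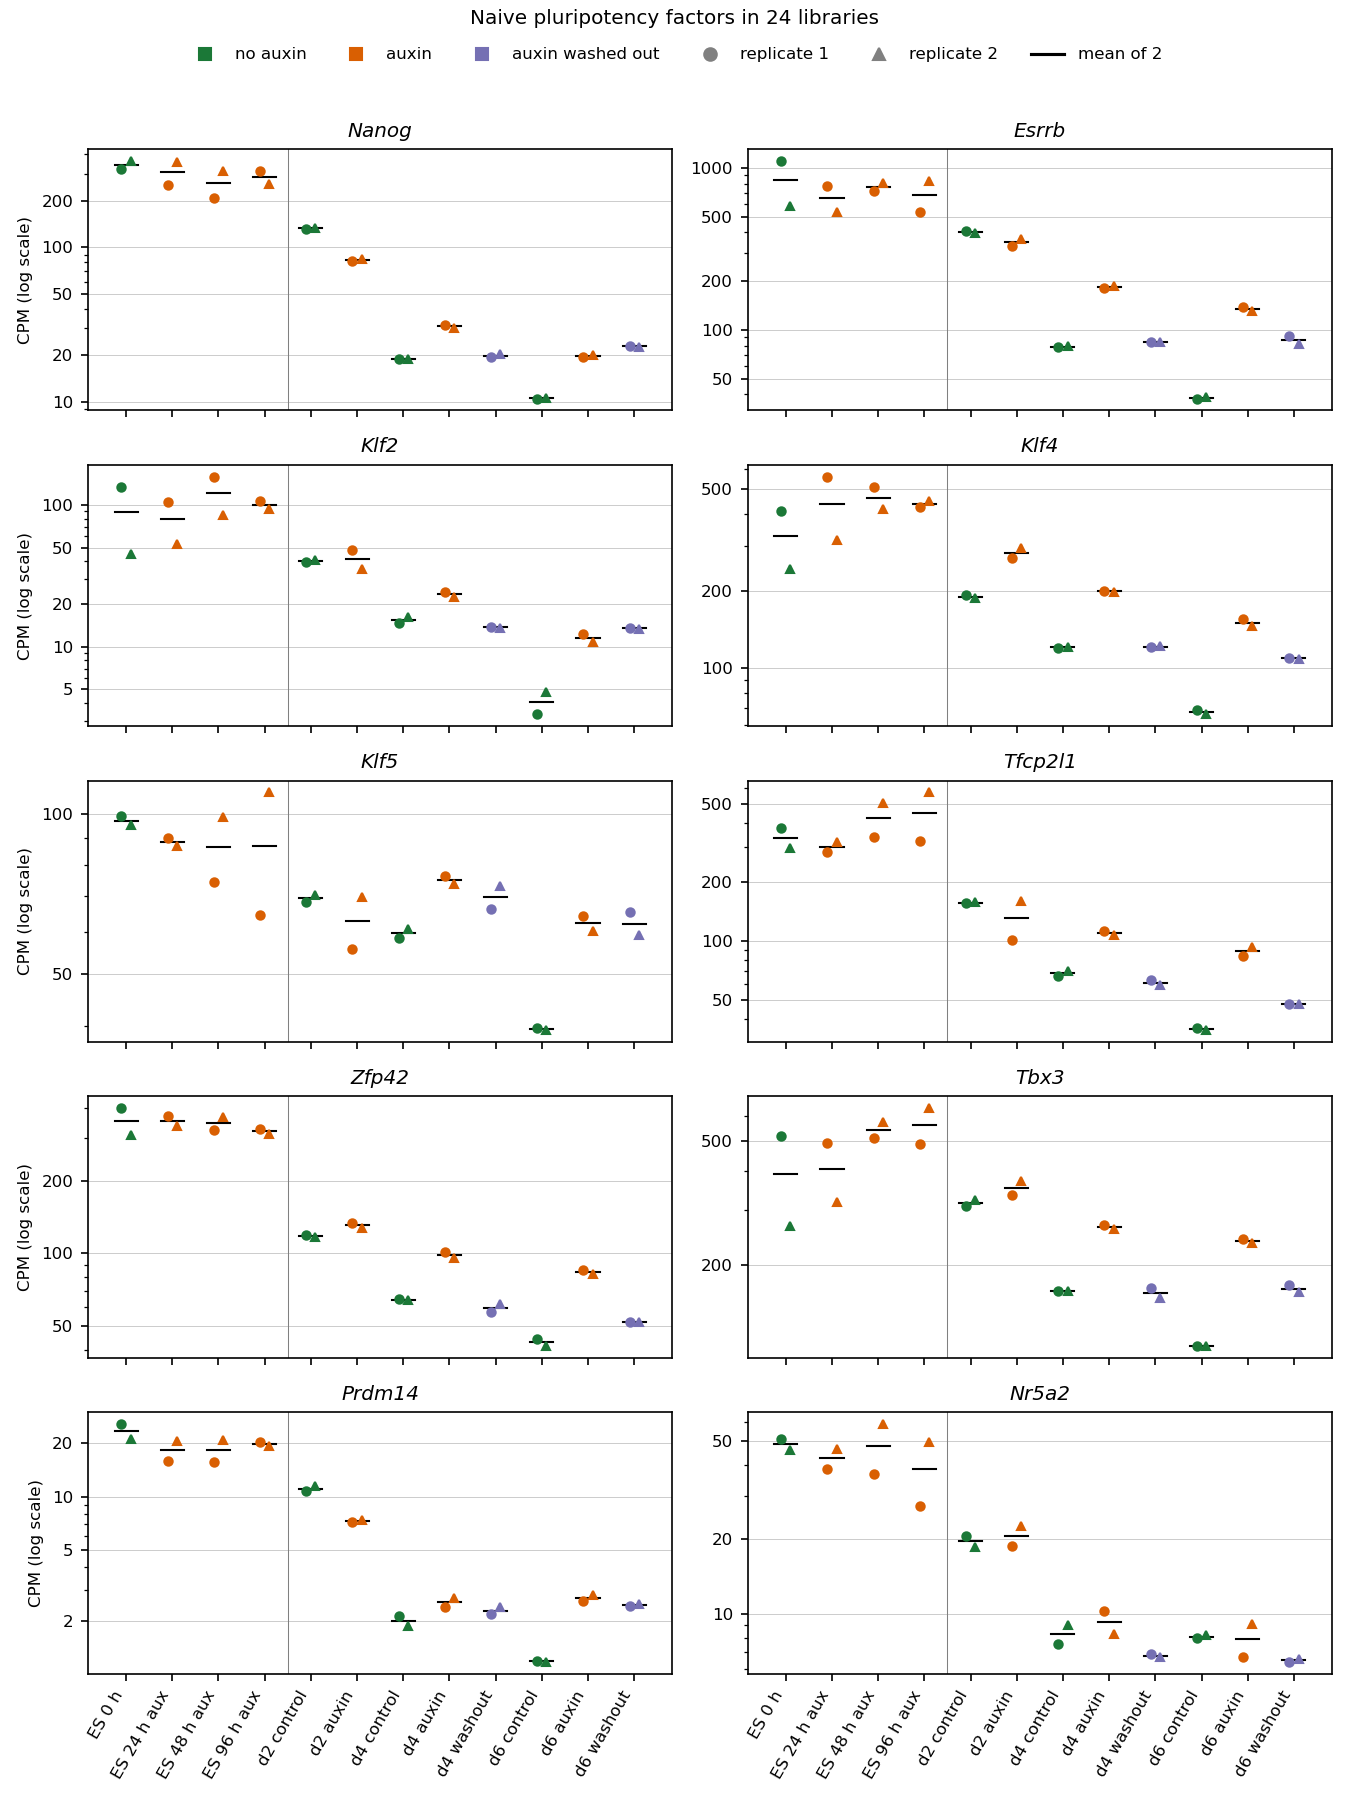
CPM of each factor in all 24 libraries on log axes, 1 panel per gene, with the 12 groups on the horizontal axis, circles and triangles for replicates 1 and 2, and a bar for their mean. Replicates lie far apart for Klf2 in ES cells at 0 h (133 and 44.8 CPM), and every gene is lower on day 6 than in ES cells at 0 h.

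Auxin in ES cells kept in LIF moved none of the 10 factors past the test. Nanog, on chromosome 6 (mm10, 122707489 to 122714633), was 322 and 363 CPM at 0 h, 254 and 359 at 24 h, 210.1 and 310.0 at 48 h and 312 and 257 CPM at 96 h. Esrrb, on chromosome 12 (86361117 to 86521628), was 1103 and 585 CPM at 0 h and 536 and 824 CPM at 96 h, so its replicates differed more than its groups. Klf4, on chromosome 4 (55527143 to 55532466), was 410.5 and 244 CPM at 0 h and 428 and 449.7 CPM at 96 h. Both of its 96 h libraries lay above both at 0 h.

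Tfcp2l1, on chromosome 1 (118627945 to 118685168), was 375 and 299 CPM at 0 h and 324 and 573 CPM at 96 h. Tbx3, on chromosome 5 (119670669 to 119684724), was 518 and 266 CPM at 0 h and 490.1 and 638 CPM at 96 h. For both genes replicate 1 was thus lower and replicate 2 higher at 96 h than at 0 h. Zfp42, on chromosome 8 (43295063 to 43306980), had the smallest standard error, with 399.9 and 311 CPM at 0 h and 327 and 314 CPM at 96 h. Across the 3 comparisons with 0 h, 0 of 10 members were called at an adjusted p under 0.05 in edgeR's quasi-likelihood test, where 0% of the 20361 genes tested were called. No member had an unadjusted p under 0.05 in any of the 3, whereas 548, 1039 and 1767 of all genes did at 24, 48 and 96 h. The members' log2 fold changes ran from -0.37 to 0.42 at 24 h, -0.40 to 0.49 at 48 h and -0.35 to 0.51 at 96 h, with medians of -0.16, -0.04 and -0.17 beside -0.01, -0.03 and -0.03 over all genes.

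With the replicate number as a block, which the ES libraries allow because same-numbered samples deviate together, 0.113%, 0.196% and 3.05% of genes were called at 24, 48 and 96 h, and still no member, the lowest adjusted p among them being 0.26. The Wald test of DESeq2 called 76, 156 and 367 genes and no member. In simulated data with the spread of these libraries, the ES fit recovered 1% of 100 genes changed 2-fold and 54% of 100 changed 4-fold, so most 2-fold changes would be missed. Those genes were drawn at random and fitted without the block, so the recovery for each member is not known. At 96 h the members' SE ran from 0.21 to 0.54 on the log2 scale. In the fit with the replicate block at 96 h, 2 of 23 other naive pluripotency genes were higher and 3 lower, and 8 of 24 formative and primed genes were lower.

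During differentiation without auxin all 10 factors fell, to between 3.09% (Nanog) and 40.6% (Klf5) of the ES level by day 6. On the log2 scale the largest step of Nanog, Esrrb, Prdm14, Tfcp2l1 and Tbx3 was that from day 2 to day 4. Bulk libraries cannot tell fewer cells expressing a gene apart from less RNA per cell, here and in every result after this one. Relative to ES 0 h, 8 of 10 members fell by day 2, when 18.2% of 23831 genes were called (7.91% lower). All 10 fell by day 4, when 38.4% of genes were called (18.6% lower), and by day 6, with 43.7% called (21.8% lower). The members' median log2 fold change was -1.09, -2.49 and -3.15 on the 3 days, beside -0.01, -0.04 and -0.07 over all genes.

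Nanog was 133 CPM in both day 2 controls, 18.93 and 18.96 CPM on day 4 and 10.5 and 10.7 CPM on day 6. Its log2 fold change was -1.37 ± 0.17 (SE) by day 2 and -5.01 ± 0.20 by day 6 (adjusted p = 4.7e-12), a 32.3-fold drop from ES 0 h. Nanog was the member that fell furthest.

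The nuclear receptors Esrrb and Nr5a2 were 22.1-fold and 6.01-fold below ES 0 h on day 6, a difference between genes that was not tested. Esrrb was 409 and 397 CPM on day 2, 78.1 and 79.4 on day 4 and 37.7 and 38.6 CPM on day 6 (log2 -4.47 ± 0.27, adjusted p = 4.5e-10). Nr5a2, on chromosome 1 (136842571 to 136960448), was 20.7 and 18.6 CPM on day 2, 7.58 and 9.0 on day 4 and 7.95 and 8.19 CPM on day 6. It fell by 1.23 ± 0.14 from day 2 to day 4 (adjusted p = 1.3e-06), but its day 4 and day 6 libraries overlapped (adjusted p = 0.91), and it was the only member not called lower between those days.

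The 3 KLF genes fell to different extents. Klf2, on chromosome 8 (72319033 to 72321656), was 39.6 and 40.8 CPM on day 2, 14.8 and 16.1 on day 4 and 3.32 and 4.75 CPM on day 6. Its step from day 4 to day 6, a drop of 1.92 ± 0.16 (adjusted p = 1.0e-07), was the steepest of any member in that interval. Klf4 was 193 and 188, 120.2 and 121, and 68.6 and 65.99 CPM on the 3 days, 4.86-fold below ES 0 h at the end. Klf5, on chromosome 14 (99298691 to 99315036), was 68.3 and 70.3, 58.5 and 60.7, and 39.6 and 39.2 CPM, only 2.46-fold below ES 0 h on day 6. Klf5 did not pass the test on day 2 against ES cells (log2 -0.49 ± 0.19, adjusted p = 0.082) or between days 2 and 4 (adjusted p = 0.065).

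Tfcp2l1 was 156 and 157, 66.2 and 70.4, and 35.8 and 35.1 CPM on days 2, 4 and 6, and ended 9.51-fold below ES 0 h. Zfp42 was 119.6 and 117, 64.7 and 64.1, and 44.2 and 41.4 CPM. It had already fallen 3.003-fold by day 2 (log2 -1.59 ± 0.12, adjusted p = 7.7e-08), more than any other member by that day. Tbx3 was 309.5 and 323, 165 and 165, and 110.0 and 109.9 CPM, and its day 2 libraries lay within the range of ES 0 h (adjusted p = 0.37). Prdm14, on chromosome 1 (13113457 to 13127163), was 10.7 and 11.5, 2.12 and 1.86, and 1.19 and 1.18 CPM, 19.7-fold below ES 0 h on day 6.

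Within the control course, which was measured far more tightly, 9 of 10 members fell from day 2 to day 4, all but Klf5, when 52.1% of 22587 genes were called (24.8% lower). From day 4 to day 6, 9 of 10 fell, all but Nr5a2, with 26.7% called (13.1% lower). The day 2 calls against ES cells lean on 1 library and on the spread of the other groups. Fitting only the 2 groups compared, 2 members were called on day 2, and on day 4 Tbx3 lost its call (adjusted p = 0.065). Without replicate 1 of ES 0 h, 5 members were called in place of 8, Klf2, Klf4 and Esrrb dropping out, and the log2 fold change of Klf2 went from -1.14 to -0.16. The calls of Klf2 and Klf4 also ended without either day 2 control (adjusted p of 0.18 and 0.20 for Klf2, 0.093 and 0.11 for Klf4), and the day 4 call of Klf5 without replicate 1 of day 4 control (0.060).

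**Figure D2:**
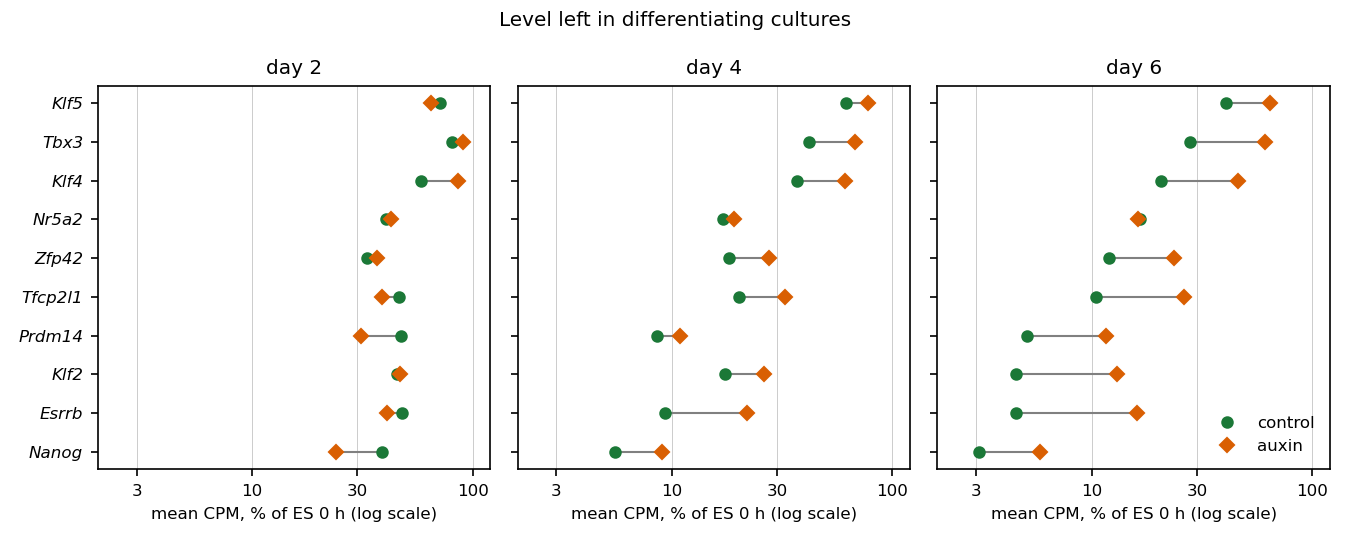
Mean CPM of each factor as a percent of its ES 0 h mean (log axis) on days 2, 4 and 6, with green circles for control and orange diamonds for auxin, genes ordered by what was left in day 6 control. Auxin lies on either side of control on day 2 and to the right of it for 9 of 10 genes on day 6, with Nr5a2 at 16.6% and 16.2%.

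On day 2 auxin split the factors. Nanog was 81.6 and 83.6 CPM with auxin against 133 in both controls, and Prdm14 was 7.15 and 7.40 against 10.7 and 11.5 CPM. Both were lower in every auxin library, by 0.67 ± 0.06 (adjusted p = 6.0e-07) and 0.59 ± 0.11 (adjusted p = 0.0011) on the log2 scale. Klf4 was 270.1 and 294 CPM with auxin against 193 and 188, higher by 0.58 ± 0.06 (adjusted p = 2.4e-06). Esrrb was 329 and 365 CPM against 409 and 397, lower by 0.20 ± 0.06 on the log2 scale (adjusted p = 0.036, and 0.19 or 0.073 without replicate 1 or 2 of the control).

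In all, 1 member was called higher and 3 lower, where 18.3% of genes were called (9.84% higher, 8.43% lower), and the median log2 fold change was -0.03 beside 0.02 over all genes. Of the other 6, Tfcp2l1 had 101 and 160.2 CPM with auxin against 156 and 157, so its 2 auxin libraries stood apart. A fit without 1 library leaves that group with 1, which is then assumed to vary like the other groups, here and wherever a library is left out. Its log2 fold change was -0.25 ± 0.13 (adjusted p = 0.23), and -0.61 (adjusted p = 1.2e-08) without replicate 2 of day 2 auxin. Klf5 had the same split, with 55.8 and 69.8 CPM against 68.3 and 70.3, and a log2 fold change of -0.13 that became -0.30 (adjusted p = 0.0012) without it. Leaving out that replicate raised the calls from 4 to 8 members, 3 higher and 5 lower. Zfp42 (134 and 127 CPM against 119.6 and 117) and Tbx3 (335 and 372 against 309.5 and 323) did not overlap their controls but missed the test, with adjusted p of 0.087 and 0.063.

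By day 4 the factors were higher with auxin. Esrrb showed the widest gap, with 183 and 187 CPM in auxin against 78.1 and 79.4 in control, 2.33-fold higher (log2 1.22 ± 0.07, adjusted p = 1.2e-09). Nanog was 31.6 and 29.99 CPM against 18.93 and 18.96, 1.62-fold higher (log2 0.69 ± 0.06, adjusted p = 3.0e-07). On day 2 it had been lower with auxin, and the test of the difference between the 2 days passed. Klf4 was 199.9 and 199 CPM against 120.2 and 121, and Klf2 was 24.1 and 22.5 against 14.8 and 16.1 CPM. Klf5 was 76.3 and 73.7 against 58.5 and 60.7 CPM, the smallest difference called, 1.25-fold (adjusted p = 0.012).

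Tfcp2l1 was 112 and 108 CPM against 66.2 and 70.4, Zfp42 was 101 and 95.5 against 64.7 and 64.1, and Tbx3 was 269 and 260.2 against 165 and 165 CPM. All 3 were 1.52- to 1.60-fold higher than in control. Prdm14, at 2.40 and 2.69 against 2.12 and 1.86 CPM, missed the test (log2 0.35 ± 0.13, adjusted p = 0.072). Nr5a2, at 10.3 and 8.32 against 7.58 and 9.0 CPM, overlapped its control (log2 0.15 ± 0.14, adjusted p = 0.52). Thus 8 of 10 members were higher and none lower, where 23.5% of genes were called (11.8% higher), and the median was 0.64 beside 0.00 over all genes. The calls of Klf5 and Klf2 ended when 1 library was left out: Klf5 without either day 4 control (adjusted p = 0.097 and 0.054) or without replicate 1 of day 4 auxin (0.093), and Klf2 without replicate 1 of the control or of auxin (0.060 and 0.051).

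On day 6 the gap was wider for most. Esrrb was 138 and 132 CPM with auxin against 37.7 and 38.6 in control, 3.51-fold higher (log2 1.81 ± 0.07, adjusted p = 1.4e-11). Klf2 was 12.3 and 10.8 CPM against 3.32 and 4.75, 2.82-fold higher (log2 1.496 ± 0.16, adjusted p = 1.6e-06). Tfcp2l1 was 83.8 and 93.1 CPM against 35.8 and 35.1, 2.48-fold higher. These 3 had the highest folds over control.

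Prdm14 was 2.59 and 2.81 CPM against 1.19 and 1.18, 2.26-fold higher (adjusted p = 6.5e-06). Klf4 was 155 and 146 CPM against 68.6 and 65.99, and Tbx3 was 241 and 236 against 110.0 and 109.9 CPM, 2.22- and 2.15-fold higher. Zfp42 was 85.2 and 81.9 CPM against 44.2 and 41.4, Nanog was 19.5 and 20.3 against 10.5 and 10.7, and Klf5 was 64.2 and 60.2 against 39.6 and 39.2 CPM. In that order they were 1.94-, 1.86- and 1.57-fold higher than in control.

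Nr5a2, at 6.68 and 9.10 CPM against 7.95 and 8.19, was the exception (log2 -0.05 ± 0.14, adjusted p = 0.85). In all, 9 of 10 members were higher and none lower, where 29.2% of genes were called (14% higher), and the median was 1.13 beside 0.01 over all genes. The count of 9 stayed at 9 without any 1 library of the compared groups and under every other setting tried. Even so, every member stayed below its ES 0 h level. With auxin the day 6 levels were 5.81% (Nanog) to 64.1% (Klf5) of ES 0 h, with Esrrb at 16%, Klf4 at 46.1% and Tbx3 at 60.9%.

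**Figure D3:**
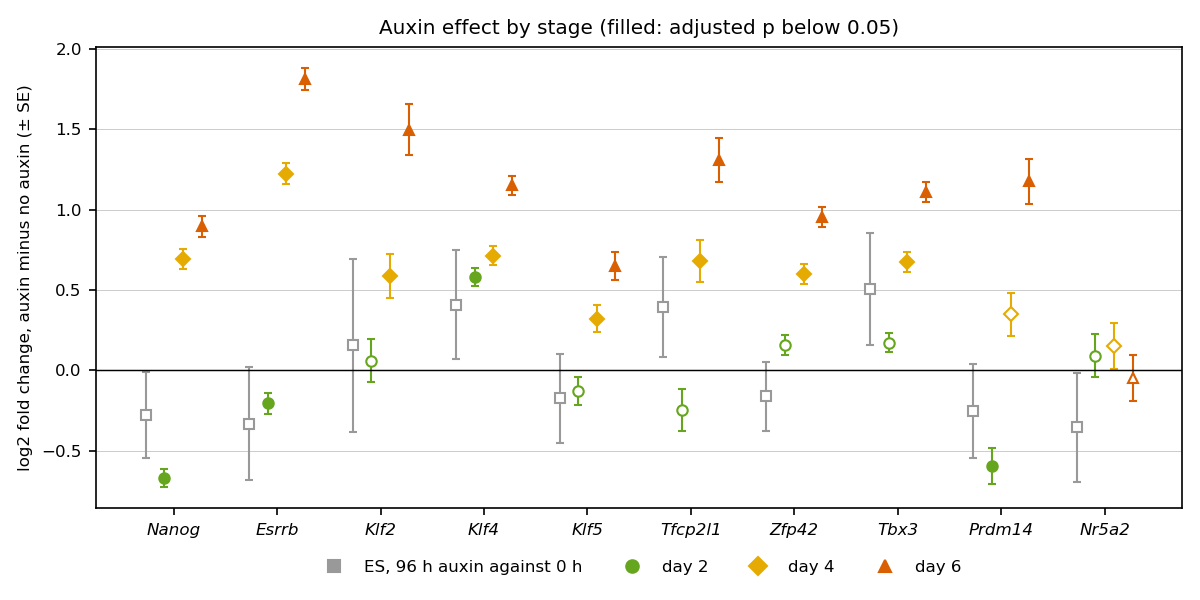
Log2 fold change of each factor with auxin against without it, with SE, in ES cells at 96 h and on days 2, 4 and 6; filled markers have an adjusted p under 0.05. The ES values have wide errors and none is filled, Nanog, Esrrb and Prdm14 are filled and below 0 on day 2, and 9 of 10 factors lie above 0 and are filled on day 6.

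With auxin most factors fell from day 2 to day 4, and 6 of 10 from day 4 to day 6. From day 2 to day 4 with auxin, 8 of 10 members fell and Klf5 rose (log2 0.25 ± 0.09, adjusted p = 0.023, lost without replicate 1 of day 2 auxin or either day 4 auxin library, 0.14, 0.12 and 0.059), with 49.9% of genes called. The drop of Nanog was 1.43 ± 0.06 with auxin and 2.79 ± 0.06 without it, and that of Esrrb was 0.91 ± 0.06 and 2.34 ± 0.07. From day 4 to day 6 with auxin, Nanog, Esrrb, Klf2, Klf4, Klf5 and Zfp42 fell, 6 of 10, with 26.1% of genes called (13.3% lower). Klf2 fell by 1.01 ± 0.14, Nanog by 0.63 ± 0.06, and Zfp42 least, by 0.23 ± 0.06. The call of Klf5 ended without any 1 of the 4 libraries (adjusted p from 0.068 to 0.22), and that of Zfp42 without replicate 1 of day 4 auxin (0.11) or replicate 2 of day 6 auxin (0.13).

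The test of the auxin effect on day 4 minus that on day 2 called 7 members, all towards a more positive effect on day 4, where 9.9% of genes were called (4.56% in that direction). The differences were 1.43 ± 0.09 for Esrrb, 1.36 ± 0.08 for Nanog, 0.94 ± 0.17 for Prdm14, 0.93 ± 0.19 for Tfcp2l1, 0.50 ± 0.09 for Tbx3, 0.45 ± 0.12 for Klf5 and 0.44 ± 0.09 for Zfp42 (log2, SE). The day 6 minus day 4 effect called 6 members, again all upward, where 4.24% of genes were called (2.05% upward). They were Klf2 at 0.91 ± 0.21, Prdm14 at 0.83 ± 0.19, Esrrb at 0.59 ± 0.09, Klf4 at 0.44 ± 0.08, Tbx3 at 0.43 ± 0.09 and Zfp42 at 0.35 ± 0.09. These differences share the day 4 libraries and are not independent of each other. At an adjusted p under 0.01 the 6 become 3, and without any 1 of the 8 libraries between 2 and 4 members were called. The call of Zfp42 ended in all 8 of these fits (adjusted p from 0.054 to 0.16), that of Prdm14 in 6 (0.053 to 0.12), that of Klf2 in 5 (0.054 to 0.12) and that of Tbx3 in 2 (0.055 and 0.057). For Klf5 on the earlier interval, the call ended without any 1 of the control or day 4 auxin libraries (adjusted p from 0.062 to 0.11).

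The 4-day auxin effect compares day 4 auxin over day 4 control with ES cells at 96 h over 0 h. The sample labels give hours of auxin only for ES cells, so equal exposure is assumed, and the ES side has no untreated group at 96 h. The effect was larger in differentiating cells for 2 members, Esrrb by 1.54 ± 0.33 (adjusted p = 0.025) and Zfp42 by 0.76 ± 0.17 (adjusted p = 0.034). Of 23831 genes, 1.23% were called (0.462% in that direction). Nanog, with a difference of 0.97 ± 0.24, missed the test (adjusted p = 0.055) and passed with the replicate block (0.042), which gave 3 members where 1.46% of genes were called. These calls did not withstand fewer libraries. Fitting only the 4 groups compared gave none (adjusted p = 0.42 for Esrrb and 0.49 for Zfp42). Leaving out replicate 1 of ES 0 h ended both (0.053 and 0.070), as did leaving out any 1 of the 4 day 4 libraries (0.093 to 0.12 and 0.12 to 0.19), and Esrrb was also lost without replicate 1 of ES 96 h (0.071).

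After auxin was washed out on day 4, some factors lay between day 6 control and day 6 auxin by day 6 and others did not. Klf2 was 13.7 and 13.6 CPM, above the libraries of day 6 control (3.32 and 4.75) and of day 6 auxin (12.3 and 10.8), without passing the test against auxin (adjusted p = 0.18). Nanog was 19.5 and 20.5 CPM, overlapping day 6 auxin (19.5 and 20.3). Esrrb was 84.4 and 83.9 CPM, between day 6 control (37.7 and 38.6) and day 6 auxin (138 and 132). Zfp42, at 57.4 and 61.9 CPM, and Tbx3, at 168 and 156 CPM, also lay between the 2 groups. So did Prdm14, at 2.20 and 2.38 CPM between control (1.19 and 1.18) and auxin (2.59 and 2.81), though it was not called against auxin.

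Against day 6 auxin, 5 of 10 members were lower after the day 4 washout, Esrrb by 0.66 ± 0.07, Tbx3 by 0.54 ± 0.06, Tfcp2l1 by 0.51 ± 0.13, Zfp42 by 0.47 ± 0.06 and Klf4 by 0.30 ± 0.06, where 34.6% of genes were called (17.3% lower). The call of Tfcp2l1 ended without replicate 2 of either group (adjusted p = 0.071 and 0.060). Against day 6 control, 9 of 10 were higher, where 33.9% of genes were called (16.8% higher), by 1.40-fold (Zfp42) to 3.38-fold (Klf2). Nr5a2, at 6.85 and 6.70 CPM, lay under both controls (7.95 and 8.19) and missed the test (adjusted p = 0.23). Against day 4 auxin, the group from which it was taken, 8 of 10 had fallen, where 45.2% of genes were called (22.7% lower); Klf5 and Prdm14 were not called, and the call of Nr5a2 (adjusted p = 0.027) ended without replicate 1 of day 4 auxin (0.25) or either washout library (0.080 and 0.12). The 9 members called higher with auxin on day 6 were placed on a scale. It has 0 for the mean of day 6 control and 100 for that of day 6 auxin. The 9 stood at a median of 64.4, from 40.7 (Tbx3) and 41.4 (Zfp42) to 128 (Klf2) and 132 (Klf5).

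The day 6 washout group, 2 days older than any control, showed a like spread. Nanog was 23.1 and 22.8 CPM, above both day 6 auxin libraries, by 0.22 ± 0.06 on the log2 scale (adjusted p = 0.0093, and 0.078 without replicate 1 of day 6 auxin). Tfcp2l1 was 47.7 and 47.6 CPM against 83.8 and 93.1, lower by 0.88 ± 0.13, and Zfp42 was 52.2 and 52.0 against 85.2 and 81.9 CPM, lower by 0.67 ± 0.06. Esrrb, Tbx3 and Klf4 were lower by 0.62 ± 0.07, 0.49 ± 0.06 and 0.45 ± 0.06. Prdm14, at 2.42 and 2.50 CPM, lay under both day 6 auxin libraries (2.59 and 2.81) but was not called. So 1 member was higher and 5 lower than in day 6 auxin, where 40.3% of genes were called (20.4% higher, 19.9% lower).

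Against day 6 control, 9 of 10 were higher after the day 6 washout, where 36.9% of genes were called (18.5% higher), from 1.22-fold for Zfp42 to 3.33-fold for Klf2; Tfcp2l1 (1.35-fold, adjusted p = 0.019) lost its call without any 1 of the 4 libraries (adjusted p from 0.071 to 0.092). On the same scale from 0 to 100 the 9 stood at a median of 50.3, lowest for Zfp42 at 22.7 and Tfcp2l1 at 22.99 and highest for Klf2 at 126 and Nanog at 133. Between the washout groups the largest difference was that of Tfcp2l1, at 47.7 and 47.6 CPM in the later one and 63.0 and 59.6 in the earlier, which missed the test (log2 -0.37 ± 0.13, adjusted p = 0.087). Nanog was higher in the later one by 0.20 ± 0.06 (adjusted p = 0.048) and Zfp42 lower by 0.20 ± 0.06 (adjusted p = 0.042), 2 members where 13.2% of genes were called, and neither call held without any 1 of the 4 libraries. In a fit without the day 2 auxin libraries, an alternative chosen after seeing the data, 5 members were called, where 5444 of 22326 genes were called. Comparisons that name the same group share its libraries and are not independent. The washout libraries also had a lower share of even low counts than the others, as given under the processing.

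**Figure D4:**
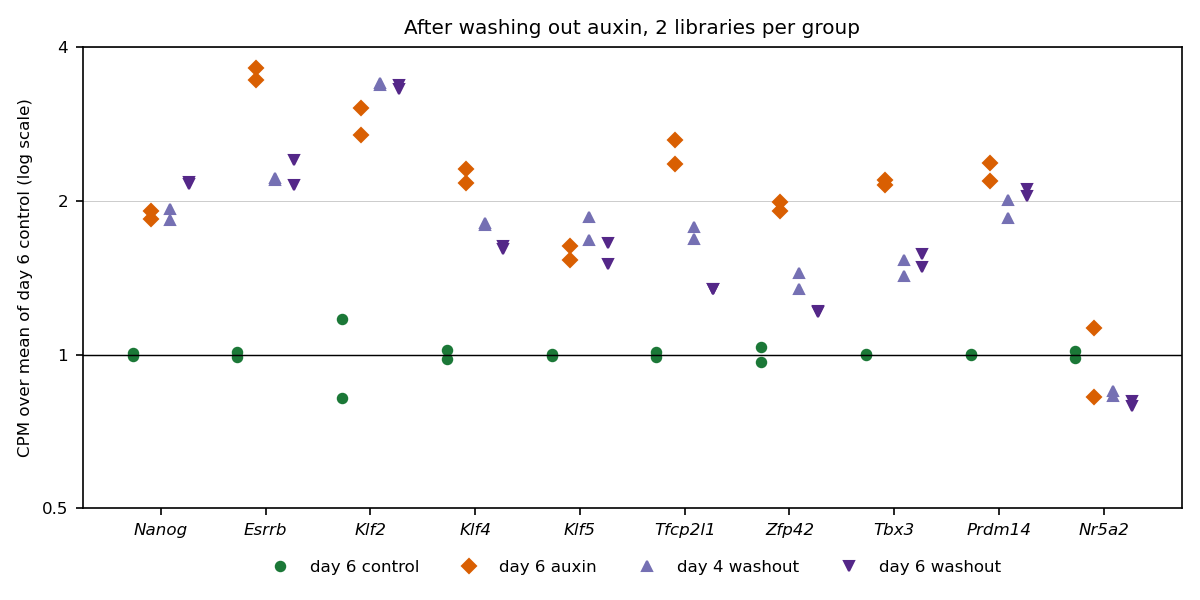
CPM of each factor over its mean in day 6 control (log axis), 2 libraries per group, for day 6 control, day 6 auxin and the day 4 and day 6 washout groups. Esrrb, Klf4, Tfcp2l1, Zfp42, Tbx3 and Prdm14 lie between control and auxin after washout. Nanog, Klf2 and Klf5 lie at or above auxin or overlap it, and Nr5a2 lies below 1 in both washout groups.

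Other naive pluripotency genes, 23 in number, were 7 higher and 3 lower with auxin on day 2, 10 higher and 3 lower on day 4, and 14 higher and 1 lower on day 6. Of all genes, 9.84%, 11.8% and 14% were higher on the 3 days. Their median log2 fold changes were 0.05, 0.30 and 0.66, beside 0.02, 0.00 and 0.01 over all genes. On day 6, Dppa3, an egg and germ cell chromatin factor, was 37.4 CPM against 10.4 (log2 1.84 ± 0.12). Nr0b1, an orphan nuclear receptor gene, was 9.67 against 2.68 CPM (log2 1.84 ± 0.11), Fbxo15, an F-box gene used as an ES reporter, was 98.5 against 32.3 (log2 1.59 ± 0.08) and Pecam1, an adhesion molecule, was 56.9 against 20.8 CPM (log2 1.44 ± 0.07). Core pluripotency genes were split, with 3 of 14 higher and 2 lower on day 6, where 29.2% of all genes were called. Pou5f1 was 173 and 169 CPM with auxin against 84.6 and 78.7 (log2 1.05 ± 0.07). Sall4 was higher by 0.45 ± 0.08, and Lin28b, which blocks let-7 maturation, was lower by 0.48 ± 0.09. On day 4, 3 of 14 were higher, Utf1 and Pou5f1 among them, and 4 lower, where 23.5% of all genes were called.

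With auxin, 23.5% of all genes were called on day 4 (11.8% higher) and 29.2% on day 6 (14% higher). In the LIF and STAT3 pathway, 3 of 14 genes were higher and 4 lower on day 4, and 8 higher and none lower on day 6. Among the latter, Il6st, the gp130 co-receptor of LIF, was 359.9 CPM against 262, and Pramel7, a STAT3 target in ES cells, was 97.1 against 47.1 CPM. Formative and primed genes, which mark the step after the naive state, went both ways on day 6, 6 of 25 higher and 10 lower. Eomes, a T-box factor of the primitive streak and endoderm, was 43.3 against 11.01 CPM, and Sox3, a neural and epiblast factor, was 2.80 against 10.6 CPM. Of the genes around beta-catenin and TCF3, which restrains several of the factors, 2 of 11 were higher and 5 lower.

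Of 30 paralogs of the factors, 9 were higher and 7 lower with auxin on day 6, where 29.2% of all genes were called (14% higher), with a median of 0.16 beside 0.01 over all genes. Among those called, Klf15, a metabolic regulator, was 13.5 CPM against 4.54 (log2 1.56 ± 0.12). In control differentiation, when all 10 factors fell, 7 of the 30 paralogs were higher on day 6 than in ES cells and 9 lower. Of all 23831 genes tested there, 5240 were higher and 5185 lower. Tbx2, the closest relative of Tbx3, went from 0.50 to 36.3 CPM (log2 6.35 ± 0.48), and Esrrg, a relative of Esrrb, from 0.24 to 3.41 CPM (log2 3.72 ± 0.39), whereas Grhl3, a relative of Tfcp2l1, went from 45.1 to 2.43 CPM. Klf6 was 380.0 and 397 CPM after the day 4 washout against 161 and 164 in day 6 control. Nr5a1, the paralog of Nr5a2, was under 0.51 CPM in every library, and Yy2, the relative of Zfp42, had no count in any library.

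Markers of other cells moved with the groups in which the factors differ. With auxin on day 4, 7 of 9 neural progenitor markers and 6 of 7 neuron markers were lower, where 23.5% of all genes were called (11.8% higher). The neuron markers summed to 21.9 and 19.8 CPM against 40.8 and 38.8 in control. Yet the progenitor markers summed to 526 and 520 CPM against 506 and 507. With auxin on day 6, 29.2% of all genes were called (14% higher). Of the 9 neural progenitor markers, 7 were lower and 1 higher (median -2.61), with Olig2 at 0.069 CPM against 6.21 and Nkx6-1 at 1.24 against 14.1 CPM. The summed level of the 9 was nevertheless 614 and 601 CPM with auxin against 637 and 650 in control, as Vim, named after its values were seen, alone made up 410.5 to 464 CPM of them. All 7 neuron markers were lower, with sums of 24.2 and 24.1 CPM against 259 and 272, and none was at 0. Endoderm markers, of interest because Klf4, Klf5, Tbx3 and Nr5a2 are also expressed in endoderm, were 5 of 12 higher and 3 lower (median 0.04), with sums of 3329.6 and 3594 CPM against 3107 and 2815 and none at 0. Germ cell markers, of interest because Prdm14 also acts in germ cells, were 4 of 8 higher on day 4 and 5 of 8 higher and 1 lower on day 6. On day 6 they summed to 422 and 437 CPM against 278 and 262, none at 0. The 8 include Prdm14 itself, already called higher on day 6, and Dppa3, already counted among the other naive genes. Of 10 fibroblast markers 6 were lower and 1 higher with auxin on day 6, with sums of 382 and 381 CPM against 614 and 600. After the day 6 washout, 9 of 10 fibroblast markers were higher than in day 6 control, with sums of 1240 and 1209 CPM against 614 and 600 and none at 0. In the same comparison 6 of 8 trophoblast markers were higher, as were 18.5% of all genes. The part of these cells in the levels of the factors was not tested.

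Across the 12 group means, the factors shared most of their course. Pearson's r of log2 CPM between 2 members ran from 0.734 for Klf5 and Nr5a2 to 0.996 for Nanog and Prdm14, with a median of 0.959 over 45 pairs. These are descriptions over 12 points that share libraries and are dominated by the fall from ES cells to day 6. The comparison took in 13892 genes, a number that includes members. Outside the members, the 2 most alike were Gpa33 and Mif4gd for Nanog (r = 0.995 and 0.992) and for Prdm14 (0.994 and 0.994). For Esrrb they were Zyg11a and Pou5f1 (0.992 and 0.992), and for Tfcp2l1 Nfatc2ip and Zyg11a (0.993 and 0.988). They were Rnf125 and Triml1 for Zfp42 (0.995 and 0.994), Ahsg and Dlgap3 for Klf4 (0.978 and 0.977), Mrps24 and Frmd6 for Klf2 (0.990 and 0.985) and Pianp and Adgre5 for Tbx3 (0.985 and 0.975). Galnt6 and H2-M6-ps were most alike Nr5a2 (0.997 and 0.997). Klf5 had the least close companions, Taf4b at 0.952 and Tpst2 at 0.923.

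Exons of Tbx3 share 115 bases with the antisense gene Tbx3os1, and reads of the pair cannot be told apart where the strand setting of the counting is not given. Exons of Tfcp2l1 share 130 bases with the small RNA gene Gm23497 on the same strand. No other member overlapped exons of another annotated gene.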

How the data were processed

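Whole-number read counts per gene were deposited by the authors in 1 table of 24 libraries. STAR, HTSeq, edgeR and the mm10 genome are named per the submitters' processing notes; the sources used here give no versions, strand setting or annotation. The header of the table is out of step with its columns, which were therefore taken by number, 0 columns of samples stayed unused, and 1 line that names no gene was dropped. Between 59.6% and 78.0% of the counts from 1 to 20 in a library were even, so reads may have been counted as mates. Fits on halved counts are among the alternatives. The washout libraries had the lowest shares, 59.6% and 59.9% for day 4 and 60.5% and 60.1% for day 6. Day 6 control had 66.3% and 67.1%, and day 6 auxin 67.1% and 65.9%. So the washout groups also differ from these in a technical trait, and its part in the washout comparisons was not tested.

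Genes passed filterByExpr (minimum count 10, total 15), libraries were scaled by TMM, and edgeR 4.0.16 (limma 3.58.1, R 4.3.3) gave quasi-likelihood tests with Benjamini-Hochberg adjustment at 0.05. ES comparisons were fitted on the 8 ES libraries, differentiation on 16, and comparisons across both on all 24. DESeq2 1.42.0 was an alternative. In the ES groups all 6 pairs of same-numbered samples deviated together (r from 0.183 to 0.736), so the shared replicate number is taken to pair them there. The steps were tested on simulated data, where the day 4 auxin fit recovered 91% of 100 genes changed 2-fold. Lengths are unions of annotated exons. Named are all members, Ctcf, up to 4 called genes of each list with the largest change, and the 2 genes most like each member; others are said to be chosen later. The members and lists were chosen with earlier results of these data known.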

Additional observations from a re-analysis of the deposited data

Results flagged for a closer look

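For these factors the effect of auxin differed between stages by the test of the difference itself (log2, later minus earlier stage, edgeR's quasi-likelihood test). From day 2 to day 4 the effect became more positive, by 1.43 for Esrrb, 1.36 for Nanog, 0.94 for Prdm14, 0.93 for Tfcp2l1, 0.50 for Tbx3, 0.45 for Klf5 and 0.44 for Zfp42. From day 4 to day 6 it rose by 0.91 for Klf2, 0.83 for Prdm14, 0.59 for Esrrb, 0.44 for Klf4, 0.43 for Tbx3 and 0.35 for Zfp42, the last lost without any 1 of the 8 libraries. Between ES cells at 96 h and day 4 it differed by 1.54 for Esrrb and 0.76 for Zfp42, and both calls ended with only the groups compared (adjusted p = 0.42 and 0.49), without any 1 day 4 library, and without replicate 1 of ES 0 h. Nanog and Esrrb were called lower with auxin on day 2 and higher on day 4. Prdm14 was called lower on day 2 (-0.59) and not called on day 4 (0.35).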

How the results depend on the processing

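No value of the 189 called single-gene results changed sign under any alternative. The count of members called moved most in the cases below, and smaller moves are not all listed. In 1 fit of all 24 libraries it was 0 on day 2 auxin (4 otherwise), 3 on day 4 auxin (8), 5 from day 2 to day 4 with auxin (9), 1 from day 4 to day 6 with auxin (6), 1 and 2 for the day 4 and day 6 washouts against day 6 auxin (5 and 6), 0 between washouts (2), and 1 and 0 for the stage differences (7 and 6). With only the groups compared it was 2 for day 2 against ES cells (8) and 0 for the 4-day effect (2), and Tbx3 lost its call on day 4 against ES cells (adjusted p = 0.065). At an adjusted p under 0.01 it was 0 between washouts, 3 for day 6 minus day 4 and 0 for the 4-day effect. Between washouts it was 1 with DESeq2 size factors and 1 without the filter. Without the day 2 auxin libraries, an alternative chosen after seeing the data, it was 5 there, where 5444 of 22326 genes were called. Without 1 library it ran from 5 to 9 for day 2 against ES cells, 3 to 8 for day 2 auxin, 0 to 0 between washouts, 2 to 4 for day 6 minus day 4 and 0 to 3 for the 4-day effect. The cause was not tested.

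With the replicate number as a block it was 1 between washouts and 3 for the 4-day effect, and no other count of members changed. In differentiation same-numbered samples share only a number (28 pairs, r from -0.20 to 0.16, 2 over 0.1).

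Signs turned only for values not called, here as the range without 1 library: on day 2 with auxin Klf2 from -0.21 to 0.27, Klf5 from -0.30 to 0.0011, Tfcp2l1 from -0.61 to 0.024 and Nr5a2 from -0.055 to 0.20, passing -0.0032; Nr5a2 from -0.0047 to 0.30 on day 4 and from -0.28 to 0.15 on day 6; and Tbx3 from -0.70 to 0.25 on day 2 against ES cells. Of these, Klf2, Klf5 and Tfcp2l1 without replicate 2 of day 2 auxin and Tbx3 without replicate 2 of ES 0 h passed the threshold.

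Over all genes, the 24-library fit called 313, 803 and 1564 genes for auxin on days 2, 4 and 6 (4126, 5318 and 6588 otherwise) and 307, 710 and 1955 in ES cells at 24, 48 and 96 h (0 otherwise); without the filter the ES counts were 49, 135 and 391. At 0.01, 2388 and 3380 genes were called on days 2 and 4. Without replicate 2 of day 2 auxin 7719 were called on day 2. The common dispersion was 0.134 in the ES fit and 0.0051 in the differentiation fit, each with 2 libraries a group.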
